A study of Mus musculus with 6 samples.

Results

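In all, 10 collagen genes were followed in 393P cells, a mouse lung cancer line, with and without forced expression of the transcription factor Zeb1. The genes were Col1a1, Col1a2, Col3a1, Col4a1, Col4a2, Col5a1, Col5a2, Col6a1, Col12a1 and Col18a1, and every probe set whose platform annotation named one of them alone was taken. The members are 10 of the 18193 genes that a probe set names alone, and 22 of the 45101 probe sets on the array. There were 3 control arrays, from cells stably carrying the empty pcDNA vector, and 3 Zeb1 arrays, from cells stably and constitutively expressing Zeb1, a zinc-finger repressor of epithelial genes. All cells were kept in RPMI with fetal bovine serum, and each array read the total RNA of 1 culture. The number of transfections or clones behind a group is not stated in those labels, so p-values measure the spread between cultures. The comparison asks which collagen transcripts differ once Zeb1 is expressed.

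Collagens are secreted proteins of 3 chains wound into a triple helix. Types I, III and V are fibrillar and build the fibres of connective tissue, with type V buried in type I fibres, where it governs how they start and how thick they grow. Type IV forms the sheet-like network of basement membranes under epithelia, type XVIII is a basement membrane collagen that carries heparan sulfate and whose end is released as endostatin, type VI makes beaded filaments around cells, and type XII decorates the surface of fibrils. In lung, fibrillar collagen comes mainly from fibroblasts, while epithelial cells add to the basement membrane.

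Promoter sequences are shown for the member whose signal changed most, Col5a1, for Col4a2, which shares its promoter with Col4a1, and for Col1a2, a fibrillar chain with low signal. Each window runs from 250 bases before the RefSeq start (assembly GRCm38.p6) to 50 after it, 5′ to 3′ on the gene's strand. Capitals mark CCAAT, the box bound by the factor NF-Y, and GGGCGG, the box bound by Sp1, on either strand.
Col5a1, chr2:27886175-27886474, + strand: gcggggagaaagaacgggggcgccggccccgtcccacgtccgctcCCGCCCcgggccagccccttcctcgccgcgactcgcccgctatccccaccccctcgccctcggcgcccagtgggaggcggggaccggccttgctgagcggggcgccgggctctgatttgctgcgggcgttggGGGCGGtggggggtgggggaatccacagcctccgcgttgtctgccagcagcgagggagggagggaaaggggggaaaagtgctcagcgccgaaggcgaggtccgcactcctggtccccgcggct
Col4a2, chr8:11312555-11312854, + strand: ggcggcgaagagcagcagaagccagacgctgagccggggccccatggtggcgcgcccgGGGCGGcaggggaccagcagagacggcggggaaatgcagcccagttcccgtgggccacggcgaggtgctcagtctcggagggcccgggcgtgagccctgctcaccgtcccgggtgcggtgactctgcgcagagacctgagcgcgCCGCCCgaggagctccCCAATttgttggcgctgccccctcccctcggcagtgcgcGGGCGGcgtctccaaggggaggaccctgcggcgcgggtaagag
Col1a2, chr6:4505368-4505667, + strand: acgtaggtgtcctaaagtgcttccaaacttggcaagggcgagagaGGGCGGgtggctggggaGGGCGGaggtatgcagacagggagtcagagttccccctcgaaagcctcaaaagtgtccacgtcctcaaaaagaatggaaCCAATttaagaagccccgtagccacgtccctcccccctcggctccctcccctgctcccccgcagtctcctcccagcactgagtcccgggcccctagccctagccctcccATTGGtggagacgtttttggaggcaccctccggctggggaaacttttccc
The start of Col4a1, on the opposite strand, lay 21 bases from that of Col4a2, so the Col4a2 window holds both. The E-box CAGGTG, the kind of site Zeb1 binds, was searched on both strands too. It was in 0 of the 8 windows of the 7 members in the promoter table, against 20.2% of all 32851 windows of 300 bases. CCAAT was in 4 of the 8 (37.4% of all windows) and GGGCGG in 5 of the 8 (35.7%). The windows of Col4a1 and Col4a2 share 78 bases. The only GGGCGG of Col4a1 lies there and is also a site of Col4a2, so 1 site counts in both windows. All these hits are matches of letters in short windows, and say nothing of sites outside them.

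The signals were log2 values scaled to a common mean per array. Values under the 25th percentile of all arrays (log2 4.45) were raised to that floor, and the median over all arrays, 6.32, was used to mark background: a probe set with both group means below it is called near background. Arrays of 1 group correlated at r = 0.979 to 0.984 across tested probe sets and arrays of different groups at 0.867 to 0.873. Of 4 Zeb1 probe sets the one that differed most, 1418926_at, read 4.45, 4.45 and 4.50 on the control arrays and 9.71, 9.59 and 9.78 on the Zeb1 arrays. Of 8 lung epithelial markers 7 were tested. Of these 3 fell (Cdh1, Epcam and, slightly, Krt8) and 0 rose, against 23.5% and 25.8% of all tested genes. The summed linear signal of that list was 89662 to 95624 on control and 57756 to 62021 on Zeb1 arrays. Mean log2 signal went from 14.18 to 10.17 for Cdh1 and from 13.72 to 6.66 for Epcam. The 4 tested markers that were not called included Krt18 and Krt19, so the lower sum is not a loss across the list. The keratins Krt8, Krt18 and Krt19 stayed bright in both groups, whereas the lung lineage markers Nkx2-1 and Sftpc were near background in both. Cldn18, of the same list, lay above background at 7.05 in control and 6.92 in Zeb1 cells and was not called. Of 12 fibroblast markers 10 were near background in both groups, Dcn, Lum, Postn, Pdgfra, Pdgfrb and Thy1 among them. The exceptions were Tcf21 and Twist2. Tcf21, at 5.46 and 6.32, was not tested, and only its Zeb1 mean reached the pooled median, by a hair. Twist2, a mesenchymal transcription factor, rose by 3.68 (limma adjusted p = 1.04e-05). The summed linear signal of the fibroblast list was 398 to 612 on control and 900.5 to 967 on Zeb1 arrays, and without Twist2 374 to 552 and 411 to 494. Of 6 endothelial markers 5 were near background, Pecam1 and Tie1 at the floor on every array, and Kdr was tested and not called; their sum was 348 to 483 on control and 343 to 487 on Zeb1 arrays. Of 6 haematopoietic markers 3 were near background, the pan-leukocyte marker Ptprc and the T cell marker Cd3e among them, and 1 rose: Cd14, a lipopolysaccharide co-receptor, by 2.29 (limma adjusted p = 5.32e-08). On a dimmer probe set Csf1r fell by 1.77 (adjusted p = 0.00126), while its brightest, at 7.86 in control and 7.60 in Zeb1 cells, was not called. Cd68 also lay above background, at 7.62 and 7.52, and was not called. The haematopoietic sum was 1392 to 1600.2 on control and 4912 to 5370.4 on Zeb1 arrays, and without Cd14 539 to 613 and 453 to 622. The part of these markers in the collagen results was not tested. In such bulk RNA, fewer cells of a type and less RNA per cell cannot be told apart.

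Of the 22 probe sets 13 were near background in both groups, against 40.3% of all probe sets with 1 gene symbol. They included every probe set of Col1a1, Col3a1, Col5a2 and Col6a1, 2 of the 3 of Col1a2, 1 of the 3 of Col5a1 and 3 of the 4 of Col12a1. The remaining 9 were the ones that reached the array median on at least 3 arrays and were tested. They read 6 genes. Among them Col5a1 rose on 2 probe sets, Col18a1 rose slightly on 1 of 2, Col4a1 fell slightly on 1 of 2, Col4a2 fell slightly on its 1, and Col1a2 and Col12a1 were not called. Those 5 calls among 9 stand beside 46.1% of all 20594 tested probe sets called in either direction at an adjusted p under 0.05, 24.5% as rises and 21.6% as falls. The groups did not overlap on 5 of the 9, against 55.4% of all tested probe sets. The median size of a log2 change over all tested probe sets was 0.36. The changes of Col5a1 lay well above it, and those of Col4a1, Col4a2 and Col18a1 below or about at it.

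**Figure D1:**
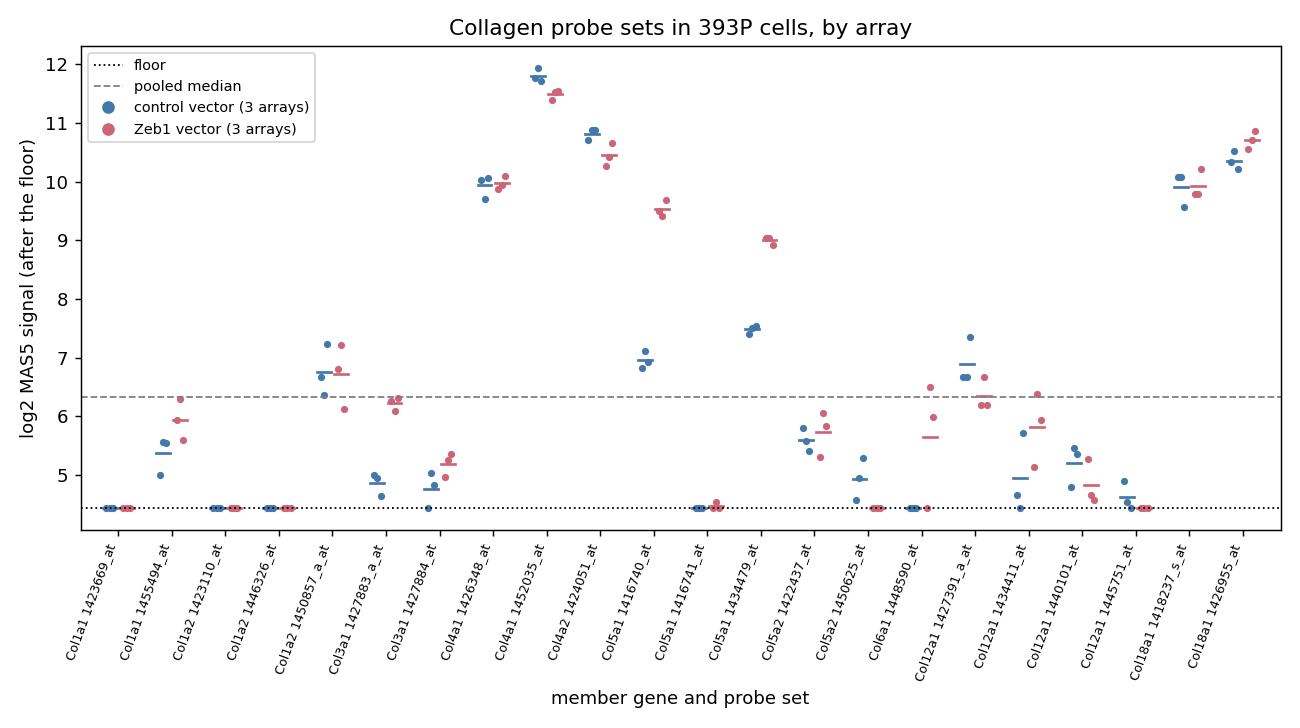
Log2 signal (vertical axis, after the floor) of each of the 22 collagen probe sets (horizontal axis) on the 3 control and 3 Zeb1 arrays; points are arrays, short bars group means, the dotted line the floor at 4.45 and the dashed line the pooled median at 6.32. The Col5a1 probe sets 1416740_at and 1434479_at show the widest gap between groups, Col4a1, Col4a2 and Col18a1 lie high in both groups, and 13 probe sets have both means under the dashed line.

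Col5a1 encodes the chain present in nearly all type V collagen. Probe set 1416740_at read 6.82, 7.12 and 6.92 on the control arrays and 9.50, 9.42 and 9.69 on the Zeb1 arrays. The groups were far apart, by over 2 log2 units between the highest control and the lowest Zeb1 array. The means were 6.95 ± 0.150 and 9.54 ± 0.137 (SD, n = 3 each), a rise of 2.58 on the log2 scale (SE 0.141, limma adjusted p = 5.2e-07), or 5.99-fold with a 95% interval of 4.81 to 7.47. Probe set 1434479_at read 7.41, 7.51 and 7.54 in control and 9.04, 9.05 and 8.92 in Zeb1 cells, again with no overlap. It rose by 1.52 (SE 0.124, limma adjusted p = 8.2e-06), or 2.86-fold (2.36 to 3.47), so both probe sets gave the same direction but different sizes. Probe set 1416741_at was at the floor on 5 of the 6 arrays and at 4.54 on the other, a Zeb1 array, and carries no measure of the change. Among tested genes the log2 profiles closest to that of 1416740_at over the 6 arrays, each centred on its mean, were those of Otop1, Gyg and Kcnq5, at Euclidean distances of 0.21, 0.22 and 0.23. Their log2 changes were 2.48, 2.56 and 2.60. With 2 groups of arrays such a distance depends much on the size of the change, and shared regulation was not tested.

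Col5a2, which encodes the partner chain of the common type V molecule, was near background on both probe sets. On the brighter one, 1422437_at, the control arrays read 5.80, 5.57 and 5.41 and the Zeb1 arrays 5.31, 6.07 and 5.84, overlapping. On 1450625_at the control arrays read 4.58, 4.94 and 5.29 and all 3 Zeb1 arrays were at the floor. Neither was tested, and with no filter on dim probe sets neither was called (limma adjusted p = 0.787 and 0.152). Within each array the difference Col5a1 minus Col5a2 of the brightest probe sets went from 1.36 ± 0.294 to 3.80 ± 0.418 (SD, n = 3), a shift of 2.44. Its two-sided exact permutation p was 0.1, the smallest that 3 arrays against 3 allow, and 0.3 after Benjamini-Hochberg adjustment over the 3 chain pairs compared. The Col5a2 signal subtracted lay under the pooled median on all 6 arrays, so the shift does not measure a ratio of the chains. Col5a3, which encodes the remaining type V chain, was tested and had a log2 change of -0.0079 (95% interval -0.70 to 0.68, limma adjusted p = 0.988).

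The chains of type I collagen gave little signal. Col1a1 had 1 probe set, 1423669_at, at the floor on all 6 arrays and another, 1455494_at, that read 5.005, 5.57 and 5.54 in control and 5.94, 6.30 and 5.59 in Zeb1 cells. On the latter every Zeb1 array was just above every control array, yet all 6 lay below the pooled median. With no filter its log2 change was 0.57 (SE 0.258, limma adjusted p = 0.215). Col1a2 had 2 probe sets, 1423110_at and 1446326_at, at the floor on all 6 arrays. Its brightest, 1450857_a_at, read 6.67, 6.36 and 7.24 in control and 6.82, 7.22 and 6.13 in Zeb1 cells, so that the groups covered the same range. The log2 change was -0.034 (95% interval -0.78 to 0.71, limma adjusted p = 0.947), an interval that leaves room for a change of up to 1.64-fold upwards or to 0.582 of control. The difference Col1a1 minus Col1a2 shifted by 0.61 (two-sided exact permutation p = 0.3; 0.45 adjusted over the 3 pairs), and by -0.032 with the floor at the pooled median. With Col1a1 below that median on every array, it too is no measure of the ratio of the chains.

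Col3a1, the chain of the homotrimer that accompanies type I in pliable tissues, lay near background with groups that did not overlap on 1 probe set. On 1427883_a_at the control arrays read 5.005, 4.94 and 4.65 and the Zeb1 arrays 6.27, 6.09 and 6.31. The means of 4.87 ± 0.190 and 6.22 ± 0.116 (SD, n = 3) differed by 1.36. Both means were under the pooled median. The probe set did not reach the array median on 3 arrays and so was not tested, and with no filter it was called (SE 0.126, limma adjusted p = 0.00238). The other, 1427884_at, read 4.45 (the floor), 5.04 and 4.82 in control and 4.97, 5.26 and 5.36 in Zeb1 cells, which overlapped, and it was not called with no filter (0.43, limma adjusted p = 0.215). In all, 3 of the 13 untested probe sets had groups that did not overlap, those of Col1a1 and Col3a1 with Zeb1 above control and that of Col5a2 with Zeb1 below. Among all untested probe sets with 1 symbol the groups did not overlap on 10.1%, and Zeb1 was above control on 5.62%. Col3a1 and Col5a2 are neighbours on chromosome 1 with 0 protein-coding genes between them, and both were near background.

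Type IV collagen, the network former of basement membranes, was bright in both groups. Col4a1 on 1452035_at read 11.78, 11.94 and 11.72 in control and 11.39, 11.53 and 11.55 in Zeb1 cells. All Zeb1 arrays were below all control arrays, and the fall was 0.32 (SE 0.0795, 1.25-fold, limma adjusted p = 0.0081). Its other probe set, 1426348_at, read 10.03, 9.71 and 10.07 in control and 9.87, 9.95 and 10.10 in Zeb1 cells, which overlapped, and had a log2 change of 0.036 (95% interval -0.23 to 0.30, limma adjusted p = 0.835). The 2 probe sets of Col4a1 thus disagreed on whether it fell.

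Col4a2 was read by 1 probe set, 1424051_at, with 10.70, 10.89 and 10.87 in control and 10.26, 10.43 and 10.66 in Zeb1 cells. The closest arrays of the 2 groups were 10.70 and 10.66. It fell by 0.37 (SE 0.11, 1.29-fold, limma adjusted p = 0.0199). That call was lost without control vector replicate 2 or 3 or Zeb1 vector replicate 1 or 2 (adjusted p = 0.058, 0.0647, 0.0752 and 0.0622), with no filter (0.101) and with no intensity trend (0.0595), while the fall was 0.27 to 0.48 over the arrays left out. The profiles nearest to it were those of Usp7, Bcr and Pigt, at distances of 0.064, 0.088 and 0.11. Their log2 changes were -0.36, -0.38 and -0.38, and shared regulation was not tested here either.

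The divergent pair Col4a1 and Col4a2, whose starts both lie in the Col4a2 window shown above, moved by like amounts on their brightest probe sets. Their difference within an array was 1.07, 1.05 and 0.84 in control and 1.13, 1.10 and 0.89 in Zeb1 cells. It shifted by 0.048 (two-sided exact permutation p = 0.5, also after adjustment over the 3 pairs), and by 0.23 (exact permutation p = 0.2) when Col4a1 was the mean of its 2 probe sets. A p of this size in 3 against 3 arrays does not show that they act alike.

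**Figure D2:**
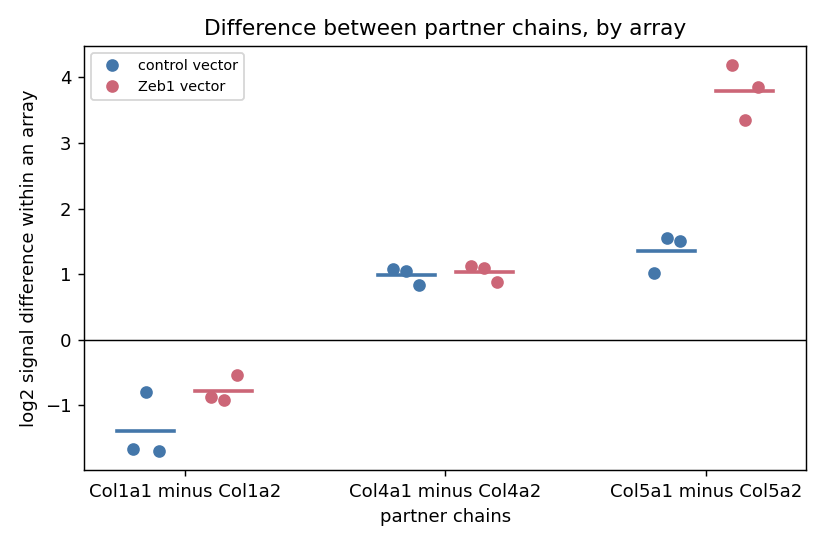
Difference in log2 signal within each array (vertical axis) between the brightest probe sets of partner collagen chains (horizontal axis); points are the 3 control and 3 Zeb1 arrays and bars group means. The level of a difference mixes 2 probe sets and has no meaning of its own, and Col1a1 and Col5a2 were near background; the shift between groups was 0.61 for Col1a1 minus Col1a2, 0.048 for Col4a1 minus Col4a2 and 2.44 for Col5a1 minus Col5a2.

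Col18a1, the other basement membrane member, was bright in both groups too. On 1426955_at it read 10.33, 10.52 and 10.21 in control and 10.56, 10.71 and 10.86 in Zeb1 cells, with the lowest Zeb1 array just above the highest control array. The rise was 0.35 (SE 0.108, 1.28-fold, limma adjusted p = 0.0226). It was no longer called without control vector replicate 1 or 3 or Zeb1 vector replicate 2 or 3 (adjusted p = 0.0665, 0.0843, 0.0644 and 0.0776), with no filter (0.102) and with no intensity trend (0.0626). The other probe set, 1418237_s_at, read 10.08, 10.08 and 9.57 in control and 9.79, 9.79 and 10.23 in Zeb1 cells, and its change was 0.026 (95% interval -0.35 to 0.40, limma adjusted p = 0.918). The promoter table holds 2 starts for Col18a1, and which transcripts each probe set reads is not known here.

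Col6a1, a chain of the beaded filaments, lay at the floor on the 3 control arrays and Zeb1 vector replicate 1, and read 6.50 and 5.98 on Zeb1 vector replicates 2 and 3. It was near background and not tested, and with no filter the adjusted p was 0.236. Its partner chains Col6a2 and Col6a3 were measurable. Col6a2 read 7.15, 7.48 and 7.93 in control and 8.17, 7.73 and 8.04 in Zeb1 cells (0.46, 95% interval -0.033 to 0.96, limma adjusted p = 0.118), a change that was called without control vector replicate 3 (0.67, adjusted p = 0.029). Col6a3 had a log2 change of -0.15 (limma adjusted p = 0.637).

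Col12a1, the fibril-associated member, was near background on 3 of its 4 probe sets. The remaining one, 1427391_a_at, read 6.67, 6.67 and 7.35 in control and 6.20, 6.67 and 6.20 in Zeb1 cells. The groups met at 6.67, and the log2 change of -0.54 was not called (SE 0.274, 95% interval -1.16 to 0.074, limma adjusted p = 0.138). On the dim ones the change of group means ran from -0.37 on 1440101_at to 0.87 on 1434411_at, and with no filter none of the 3 was called by limma (adjusted p = 0.478, 0.322 and 0.439; 1445751_at last).

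**Figure D3:**
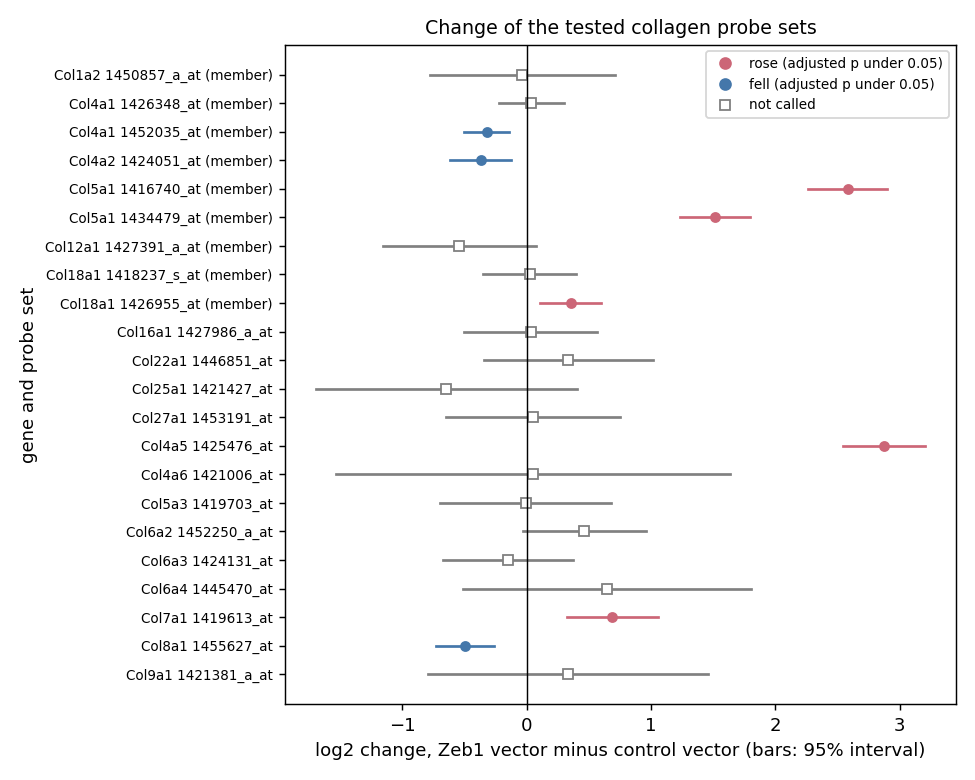
Log2 change, Zeb1 minus control (horizontal axis), with its 95% interval, for the 9 tested probe sets of the member collagens and the brightest probe set of the 13 other collagen genes that were tested (vertical axis); filled circles passed an adjusted p of 0.05. Col5a1 (2.58 and 1.52) and Col4a5 (2.88) lie far to the right of the rest.

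The array also held 32 other collagen genes, and 21 of these were near background in both groups on their brightest probe set, against 34.1% of all genes. Of the 13 tested, 2 rose, 1 fell and 10 were not called, where 49.3% of all genes were called on their brightest probe set, 25.8% as rises and 23.5% as falls. The median log2 change of the 13 was 0.052, and of all tested genes 0.013. Col4a5, a type IV chain of specialised basement membranes, went from 6.37, 6.53 and 6.26 to 9.28, 9.32 and 9.19. It rose by 2.88 (SE 0.146, 7.34-fold, limma adjusted p = 3.07e-07), and by 0.80 on its other probe set (adjusted p = 0.00757). Its head-to-head neighbour Col4a6 was scattered between 4.49 and 6.91 and not called (0.05, 95% interval -1.53 to 1.63). Col7a1, the anchoring fibril collagen that ties the basement membrane to the stroma, rose by 0.69 (limma adjusted p = 0.00624). Col8a1, a short-chain collagen, fell by 0.50 (limma adjusted p = 0.00307) and by 0.74 and 0.77 on its other probe sets. Not called were Col5a3, Col4a6, Col6a2, Col6a3, Col6a4, Col9a1, Col16a1, Col22a1, Col25a1 and Col27a1.

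Genes that make and crosslink collagen changed in both directions. Of 29 on the array 24 were tested, of which 10 rose and 5 fell, beside the 25.8% and 23.5% of all genes given above, with a median log2 change of 0.22 against 0.013 for all tested genes. On the brightest probe set of each gene, which these counts use, the largest rises were those of Pcolce2, an enhancer of procollagen C-propeptide cleavage (1.16, limma adjusted p = 1.55e-05), Sparc, a collagen-binding matrix protein (1.14, adjusted p = 2.1e-06), and the prolyl 3-hydroxylase P3h2 (0.89, adjusted p = 0.000224). A dimmer probe set of its relative P3h1, singled out after its values were seen, rose further, from 4.93 to 7.53 (2.60, adjusted p = 0.000496), against 0.78 on the brightest one (adjusted p = 0.00574). Sparc also rose by 0.98 on a second probe set and was not called on another (0.026). The largest falls were those of the crosslinking oxidase Loxl1, the procollagen C-proteinase Bmp1 (-1.66, limma adjusted p = 2.69e-06) and the prolyl 4-hydroxylase subunit P4ha1 (-0.63, adjusted p = 0.000698). Loxl1 read 6.93, 6.96 and 6.89 in control and 4.45 (the floor), 5.87 and 5.10 in Zeb1 cells, at least 3.46-fold lower (-1.79, limma adjusted p = 0.00315), and its change was -0.60 with the floor at the pooled median. Serpinh1, the collagen chaperone HSP47, fell by 0.54 (limma adjusted p = 0.00104) and by 0.44 on another probe set. Lox, the founding member of the lysyl oxidases, was at the floor on 5 of the 6 arrays.

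**Figure D4:**
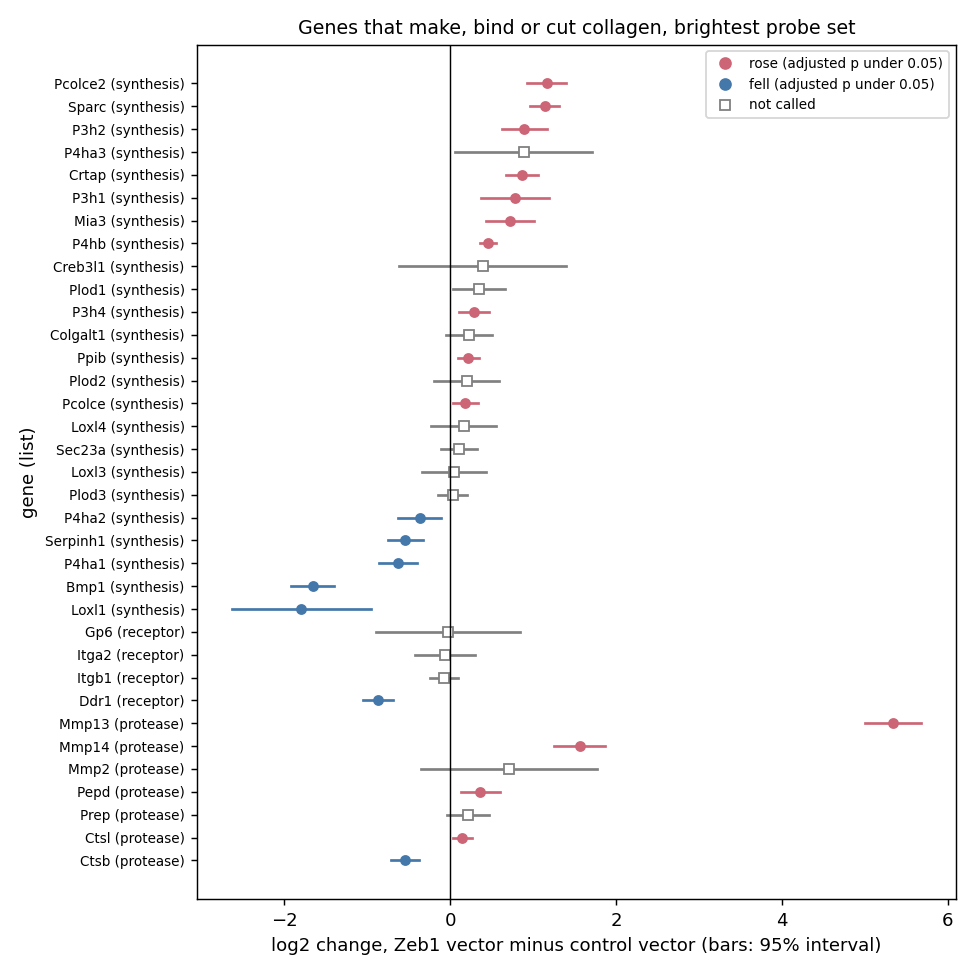
Log2 change, Zeb1 minus control (horizontal axis), with its 95% interval, of the tested genes that make or crosslink, bind, or cut collagen (vertical axis), 1 probe set per gene; filled circles passed an adjusted p of 0.05. Mmp13 (5.34) lies apart on the right, and Loxl1 (-1.79) and Bmp1 (-1.66) are the lowest.

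Of the collagen receptors 4 of 9 were tested, of which 0 rose and 1 fell, against 25.8% and 23.5% of all tested genes. Ddr1, a receptor tyrosine kinase that collagen activates, fell by 0.87 (12.34, 12.63 and 12.39 to 11.55, 11.57 and 11.65, limma adjusted p = 2.11e-05), and on its other 5 tested probe sets the change ran from -0.90 to -0.15, with 3 of the 5 called. The integrin chains Itgb1 and Itga2, partners in a collagen receptor of epithelia, had log2 changes of -0.070 (95% interval -0.24 to 0.10) and -0.058 (-0.42 to 0.30). Ddr2 was near background, and Itga1 was too, with 6.95 and 6.92 on Zeb1 vector replicates 1 and 3 and the floor on replicate 2.

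Among 13 proteases that can cut collagen or its fragments 7 were tested, 4 rose and 1 fell, with a median log2 change of 0.36. Over all tested genes 25.8% rose and 23.5% fell, and the median was 0.013. The collagenase Mmp13 read 6.79, 6.48 and 6.23 in control and 12.00, 11.75 and 11.77 in Zeb1 cells, a rise of 5.34 (limma adjusted p = 7.79e-09). The membrane-bound collagenase Mmp14 rose by 1.56 (limma adjusted p = 1.31e-05), and by 1.52 and 1.70 on its other probe sets, and the dipeptidase Pepd, which recycles proline, rose by 0.36 (adjusted p = 0.0176). Pepd missed the threshold without control vector replicate 3 or Zeb1 vector replicate 1 or 2 (0.0574, 0.0616 and 0.0528). Cathepsin B, Ctsb, fell by 0.54 (limma adjusted p = 0.000276) and by 0.57 on another probe set, and was not called on dimmer ones (-0.072 and -0.10). The number of proteases that rose was 2 without control vector replicate 3 or without Zeb1 vector replicate 1.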

How the data were processed

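Total RNA of 6 cultures was labelled with biotin for Affymetrix arrays, per the labels' protocols. The deposited table held log2 values of signals the authors had made with MAS5 and scaled per array (tool per the submitters' processing notes, version not given in the sources used here): 100% of the linear values were multiples of 0.1 within 0.01 multiples, and a mean taken after trimming 2% off both ends gave 500 per array. Detection calls were not used here. Both missing values, on control vector replicate 2, were set to the floor.

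Signals under the pooled 25th percentile were raised to it, so the size of a change that starts or ends there may be understated. Testing required a signal at or above the median of the array on 3 or more of the 6 arrays. Control probe sets (64) and those with several (932) or no gene symbol (9160) were left out. Symbols came from the platform annotation. The 34945 probe sets with 1 symbol included 34741 found by Entrez identifier in RefSeq's GRCm38.p6 table, where 0 symbols differed. Zeb1 and control vector were compared per probe set with limma 3.58.1 in R 4.3.3 (lmFit, eBayes with an intensity trend), Benjamini-Hochberg adjusted over all 20594 tested probe sets; "rose" and "fell" mean an adjusted p under 0.05, and errors of changes are limma's standard errors. On simulated arrays the fit recovered 29.9%, 67.2% and 87.9% of log2 changes of 0.5, 1 and 2. There only 67, 67 and 66 of the 20594 probe sets were changed, against 46.1% called in the real arrays. The adjusted threshold was thus stricter in the simulation, and these shares do not measure recovery in the comparison reported. With 3 arrays a group, small changes can still be missed. Partner chains were compared within arrays by exact permutation. The genes named are all members, all other tested collagens, the 3 largest called rises and falls of each further list and a few fixed partners, with the 3 nearest profiles to the largest member rise and fall. The members and lists were chosen with earlier results of these data known. The alternatives tried were the floor, the filter, quantile normalization, the trend, a replicate block, each array left out with the tested probe sets kept, and other probe set rules. Promoter windows came from RefSeq and were searched with Python 3.11.15. The labels give no batch.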

Additional observations from a re-analysis of the deposited data

How the results depend on the processing

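With no filter 1 member probe set fell in place of 2, and likewise 1 with no intensity trend; with each array left out 1 to 2 fell and 2 to 3 rose. With no filter 3 rose as in the comparison reported, but these were the pair of Col5a1 and 1427883_a_at of Col3a1, not Col18a1. Averaging the tested probe sets of each gene, 1 gene rose (Col5a1) and 1 fell (Col4a2) in place of 2 each, with Col18a1 at 0.19 and Col4a1 at -0.14, neither called. Calls over the whole table numbered 9493 probe sets, 6004 genes with 1 probe set per gene and 5859 with the mean of probe sets, as fewer features were then tested, and 8286 to 9217 probe sets with each array left out. The shift of Col1a1 minus Col1a2 was -0.032 with the floor at the pooled median and 0.45 to 0.90 with arrays left out. That of Col4a1 minus Col4a2 was 0.23 with the mean of probe sets and -0.026 (without control vector replicate 3) to 0.12 with arrays left out, and that of Col5a1 minus Col5a2 2.24 to 2.66. With the floor at the pooled median Col1a1 was constant over all 6 arrays, so its -0.032 is the Col1a2 change of 0.032 with the sign turned. The cause of the other moves was not tested. Col5a1 stayed called under each alternative run, with log2 changes of 2.51 to 2.67 and 1.48 to 1.56 with arrays left out. Same-numbered arrays of the 2 groups did not deviate together over all tested probe sets (r = 0.017, 0.014 and -0.039). The labels do not say whether a shared number marks a pairing, and these values do not settle it. With the replicate block 3 member probe sets rose, 2 fell and 9377 were called in all. The 115 values of the 9 tested member probe sets under alternatives kept direction and side of the threshold in 96 cases, lost the call in 12 and changed sign in 7, the last all on probe sets that were not called. Of the 13 untested ones 1 was called with no filter (Col3a1 1427883_a_at). The 7 sign changes were on the tested Col1a2 1450857_a_at (0.032 with the floor at the pooled median, -0.28 to 0.26 with arrays left out), Col4a1 1426348_at (-0.076 to 0.10) and Col18a1 1418237_s_at (-0.14 to 0.11). Other collagens not called changed sign too: with arrays left out Col16a1 ran from -0.15 to 0.20, Col27a1 from -0.25 to 0.41, Col4a6 from -0.67 to 0.72, Col5a3 from -0.23 to 0.33, Col6a3 from -0.31 to 0.0095 and Col9a1 from -0.24 to 0.70, and with quantile normalization Col16a1 was at -0.054, Col27a1 at -0.0071 and Col4a6 at -0.014. Signals near background limit Col1a1, Col1a2, Col3a1, Col5a2, Col6a1 and most of Col12a1: there a missing call says little.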
